A study of Mus musculus with 12 samples.

Results

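Levels of 9 complement genes were followed in 10T1/2 cells on collagen hydrogels with and without aortic carboxypeptidase-like protein (ACLP), a secreted collagen-binding protein. The genes were C3, C4b, C1ra, C1s1, Cfb, Cfd, Serping1, Cd55 and Masp1, and they were taken by gene symbol from a table of 56748 genes, in which each symbol was present. Of the 9 genes, 8 had at least 1 count in some library, and 7 passed the filter on low counts that left 16465 genes for testing. Cells on col1-ACLP had less C3, C4b, C1ra, C1s1 and Cd55 RNA than cells on col1. Of these, C1ra fell by 34.2% and Cd55 fell by 67.8%. Masp1 RNA was slightly higher, a call that held in 11 of 21 alternative settings. Serping1 RNA was near the limit of measurement in all groups. With the ALK5 inhibitor SB431542 present (col1-ACLP+SB), C3, C4b, C1ra and C1s1 RNA stayed below the col1 level.

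The cells were 10T1/2 (C3H10T1/2), an established wild-type mouse mesenchymal line, so every library came from the same line. After 1 h in suspension they were plated for 18 h on hydrogels of 12 kPa bearing a coat of type I collagen (0.05 mg/ml). The 3 groups of 4 libraries were col1 (collagen alone), col1-ACLP (collagen polymerized with 30 nM recombinant ACLP) and col1-ACLP+SB (the same matrix with 5 µM SB431542, an inhibitor of the TGFβ type I receptor kinase ALK5). SB431542 was not given on col1 alone, so its own effect on these genes cannot be told apart from its effect on the response to ACLP.

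Complement is a cascade of plasma and tissue proteins that marks surfaces for uptake and forms pores in membranes. In the classical pathway, the serine proteases C1r and C1s are activated within the C1 complex and cleave C4 and C2, in the lectin pathway MASP proteases do so, and in the alternative pathway factor D cleaves factor B bound to C3. All of these routes meet at the cleavage of C3, and membrane and soluble regulators such as CD55 and the C1 inhibitor (Serping1) restrain them. The liver makes most circulating complement, and fibroblasts and other stromal cells make several components locally.

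Library totals ran from 29246154 to 52201922 counts. Levels are given as CPM, the usual scaling of counts to a common library total, with TMM factors, and as CPM per kilobase of gene length (CPM per kb) where genes are compared with each other. All 11 mesenchymal markers were detected, with summed levels of 34165 to 35387 CPM on col1, 44073 to 52985 CPM with ACLP and 40687 to 46221 CPM with ACLP and the inhibitor, while Epcam, Adgre1, Tyrobp, Alb, Ttr and Fgb had no counts in any library. Of 10 myeloid markers 8 were detected, with a summed level of 19.7 to 23.8 CPM in the col1 libraries, 14.8 to 17.8 CPM with ACLP and 16.9 to 23.3 CPM with ACLP and the inhibitor. Of 6 hepatocyte markers 3 were detected, most of it Hp, at 14.3 to 20.5, 9.74 to 12.8 and 10.7 to 16.9 CPM in the same order. The summed mesenchymal markers were therefore higher, and the myeloid and hepatocyte markers lower, with ACLP than on col1 with no overlap, and their part in the results below was not tested. Summed endothelial markers were at 5.06 to 8.35, 7.52 to 9.85 and 4.50 to 6.41 CPM and adipocyte markers at 0.794 to 2.28, 0.496 to 1.13 and 0.436 to 0.761 CPM in that order, so the inhibitor group was apart from col1-ACLP in the first and from col1 in the latter, and their part was not tested either. Epithelial markers reached at most 5.04 CPM in any library. These sums lean on abundant genes, with Col1a1 (mean 17081 CPM) leading the mesenchymal list, Cd14 (9.15 CPM) the myeloid and Hp (14.0 CPM) the hepatocyte. Single markers need not follow their sum. Of the mesenchymal list, the study reports Col1a1 as induced and Pdgfra as suppressed on collagen-bound ACLP. In bulk RNA, fewer cells of a kind and less RNA per cell cannot be told apart. The library of col1 replicate 2 stood apart from the other col1 libraries on the first principal component, at -86.7 against -11.1 to -8.97, and the member calls lost without it are given beside the result.

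Promoter sequences are shown for the members that fell, and for their paralogs C1rb and C1s2, where RefSeq promoters were at hand for them. These promoters (build GRCm38.p6) run from 250 bases before to 50 bases after the start. The genes were chosen because all were lower on col1-ACLP than on col1. Entries were held for 5 of the 9 genes, C3, C1ra, C1s1, Cfd and Cd55. Capitals mark matches, on either strand, to the C/EBP motif TTGCNNAA, the STAT motif TTCNNNGAA and the TATA box TATAAA. The ISRE GAAANNGAAA and the consensus motifs of NF-kB and the CArG box were searched as well and had no match in these windows, and no matches in them overlapped. The windows lie at chr17:57228087-57228386 on the minus strand for C3, at chr6:124512371-124512670 on the plus strand for C1ra, at chr6:124570180-124570479 on the plus strand for its paralog C1rb, and at chr6:124542310-124542609 on the minus strand for C1s1. Those of Cd55 and C1s2 lie on the minus strand at chr1:130462695-130462994 and chr6:124636036-124636335.
C3: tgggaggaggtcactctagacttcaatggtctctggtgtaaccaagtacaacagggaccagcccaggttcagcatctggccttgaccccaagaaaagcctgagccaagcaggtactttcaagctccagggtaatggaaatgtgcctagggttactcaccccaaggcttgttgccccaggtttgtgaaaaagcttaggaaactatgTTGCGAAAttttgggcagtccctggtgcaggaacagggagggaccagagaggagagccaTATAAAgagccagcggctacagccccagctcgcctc
C1ra: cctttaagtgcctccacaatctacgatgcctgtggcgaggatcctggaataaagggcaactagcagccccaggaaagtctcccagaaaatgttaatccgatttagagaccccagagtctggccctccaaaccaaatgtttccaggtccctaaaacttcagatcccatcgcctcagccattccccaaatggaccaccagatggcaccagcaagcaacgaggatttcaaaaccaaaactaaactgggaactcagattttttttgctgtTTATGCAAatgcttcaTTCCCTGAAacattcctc
C1rb: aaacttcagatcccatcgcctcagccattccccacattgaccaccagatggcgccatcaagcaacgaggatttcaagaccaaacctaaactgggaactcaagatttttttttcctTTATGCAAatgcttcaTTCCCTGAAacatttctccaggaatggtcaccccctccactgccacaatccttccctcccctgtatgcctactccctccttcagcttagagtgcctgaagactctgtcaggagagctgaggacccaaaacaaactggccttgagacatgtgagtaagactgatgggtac
C1s1: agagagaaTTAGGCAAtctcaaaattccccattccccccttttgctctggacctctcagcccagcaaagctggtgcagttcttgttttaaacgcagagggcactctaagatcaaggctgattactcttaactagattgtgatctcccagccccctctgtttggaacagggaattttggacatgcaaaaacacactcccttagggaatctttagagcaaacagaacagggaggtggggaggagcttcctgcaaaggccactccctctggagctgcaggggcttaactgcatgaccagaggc
C1s2: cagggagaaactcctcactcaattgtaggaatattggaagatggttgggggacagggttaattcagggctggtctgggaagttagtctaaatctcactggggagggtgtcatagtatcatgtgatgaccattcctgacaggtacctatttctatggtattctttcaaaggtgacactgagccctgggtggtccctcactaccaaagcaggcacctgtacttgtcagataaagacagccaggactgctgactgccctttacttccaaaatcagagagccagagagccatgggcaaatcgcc
Cd55: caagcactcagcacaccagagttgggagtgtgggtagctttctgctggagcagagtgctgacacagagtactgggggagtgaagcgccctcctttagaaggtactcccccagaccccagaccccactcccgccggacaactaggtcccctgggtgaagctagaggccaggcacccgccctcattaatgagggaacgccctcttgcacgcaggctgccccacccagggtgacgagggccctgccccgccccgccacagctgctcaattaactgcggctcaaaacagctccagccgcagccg

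The C3 window held a C/EBP match at base -45 from the start and a TATA box at base 14. C1ra held a C/EBP match at base 16 and a STAT match at base 32, and the same letters with the same spacing stood in C1rb at bases -135 and -119 from its listed start. C1s1 held a C/EBP match at base -242, and the window of the other start that RefSeq lists for C1s1 begins after it and held no match. Of 32851 promoters of the same length, 10.8% held the C/EBP motif, 8.30% the STAT motif, 13.6% the TATA box, 3.44% the ISRE, 8.46% the NF-kB consensus and 1.63% the CArG box. The Cd55, C1s2 and Cfd windows had no match to any of the 6 motifs. A match describes letters only and says nothing of binding.

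C3, the protein on which all complement pathways converge, was by far the most abundant of the 9 genes. C3 (ENSMUSG00000024164, GRCm39 chromosome 17, 57510970 to 57535136, minus strand) had 522 ± 26.3 CPM per kb on col1 (mean ± SD, n = 4), and ranked 39 of 16465 tested genes by level per length there. Its rank was 68 with ACLP and 61 with ACLP and the inhibitor. C3 alone made up 90.0%, 90.2% and 90.1% of the summed level per length of the 9 genes in the 3 groups, so the group's total followed C3.

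The 4 col1 libraries had 2519.5, 2648, 2729 and 2840.1 CPM of C3. The 4 col1-ACLP libraries had 1811, 1705, 1739 and 1744 CPM. The 4 col1-ACLP+SB libraries had 1755, 1788, 2032 and 1900.4 CPM. All col1 libraries lay above all others, while the libraries with ACLP overlapped between the inhibitor and no inhibitor. On col1-ACLP C3 fell by 34.8% (log2 fold change -0.62, SE 0.0442, edgeR adjusted p = 7.46e-11). Under SB431542 it fell by 30.4% against col1, a log2 fold change of -0.52 (SE 0.0442, edgeR adjusted p = 3.84e-09), which passed the test but not the fold threshold of 0.58 on the log2 scale. The difference between the groups with and without inhibitor was 0.095 (SE 0.0441) with an edgeR adjusted p of 0.354.

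**Figure D1:**
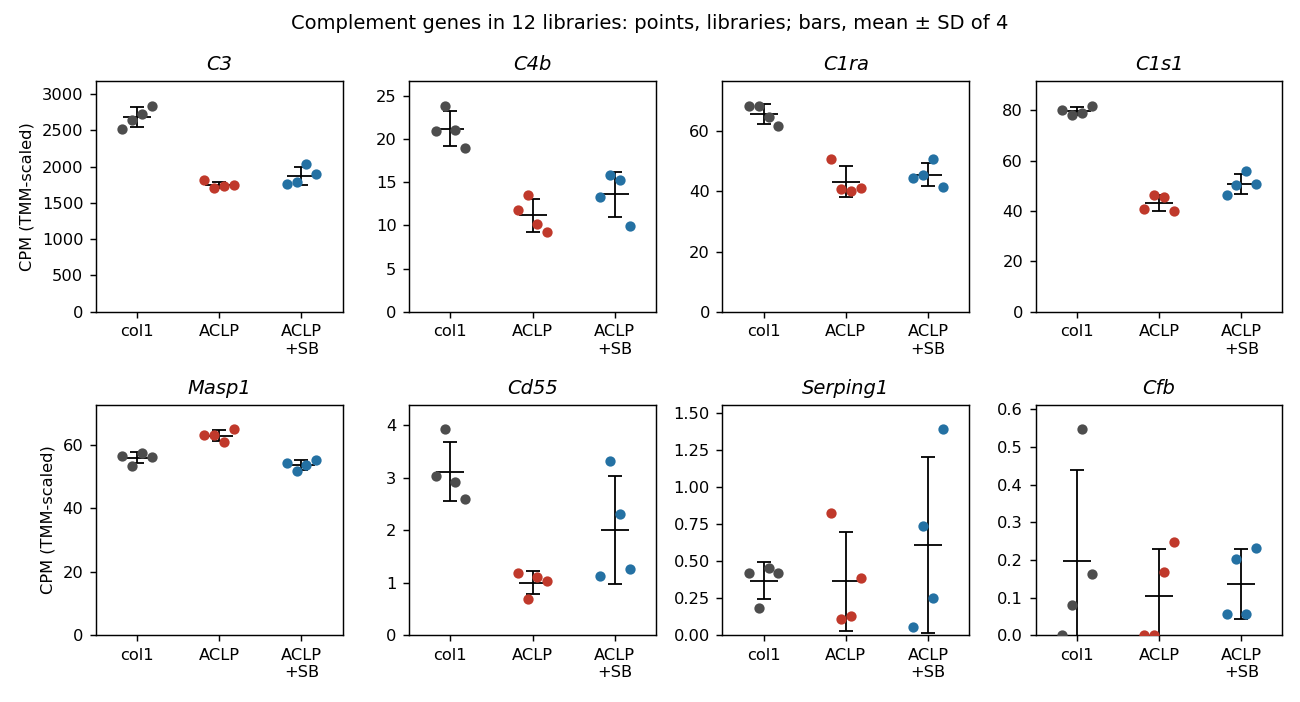
Levels of 8 of the complement genes (Cfd, at 0 throughout, is not drawn) in each of the 12 libraries, in TMM-scaled CPM on a linear axis from 0 for each gene, by group, with points for libraries and bars for the mean and SD of 4 libraries (cut at 0 for Cfb). The 4 col1 libraries of C3 sit between 2519.5 and 2840.1 CPM, above all others, and the col1 libraries of C4b, C1ra and C1s1 lie above all others too.

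C4b, which encodes complement C4 of the classical and lectin pathways, showed the same order of groups at a much lower level. C4b (ENSMUSG00000073418, chromosome 17, 34947354 to 34962856, minus strand) had 3.72 ± 0.350 CPM per kb on col1. Its libraries read 20.9, 23.8, 21.1 and 19.0 CPM without ACLP, and 11.8, 13.5, 10.1 and 9.21 CPM with it. On col1-ACLP+SB they read 13.2, 15.8, 15.2 and 9.96 CPM. No library with ACLP reached the lowest col1 library, with or without the inhibitor. C4b fell by 47.1% on col1-ACLP (log2 fold change -0.92, SE 0.138, edgeR adjusted p = 1.68e-05) and fell by 35.9% under SB431542 (-0.64, SE 0.136, edgeR adjusted p = 0.00208). The latter log2 fold change was -0.579 without col1 replicate 2 and -0.52 without col1-ACLP+SB replicate 4, both under the fold threshold. Between the groups with and without inhibitor C4b differed by 0.28 on the log2 scale (SE 0.139, edgeR adjusted p = 0.411).

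The paralog C4a, listed in the table as a long non-coding gene, did not pass the test. C4a had 8.64, 9.51, 9.26 and 8.95 CPM without ACLP, 5.74, 8.24, 7.62 and 8.97 CPM with ACLP, and 9.85, 10.6, 7.00 and 9.26 CPM with ACLP and the inhibitor. These groups overlapped. Its log2 fold change was -0.25 on col1-ACLP (SE 0.153, edgeR adjusted p = 0.309) and 0.0091 under SB431542 (SE 0.152, edgeR adjusted p = 0.986). Of 150-base windows of C4b transcripts, 7.89% also occurred in C4a, so a small part of the reads could be given to either. C4a made up 30.1% of the reads of the pair on col1 and 40.7% on col1-ACLP (exact two-sided permutation test, p = 0.02857, the smallest that 35 splits give, and 0.08571 after adjustment over 12 such tests, which were chosen after the values were seen). With the inhibitor its share was 40.6%, with an exact permutation p of 0.05714 against col1 (0.1371 adjusted) and 0.9714 against col1-ACLP.

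C1ra and C1s1 encode the paired proteases of the C1 complex, and both fell on col1-ACLP. C1s1 (ENSMUSG00000038521, chromosome 6, 124507304 to 124519318, minus strand) was the most abundant after C3 per length on col1, with 25.5 ± 0.487 CPM per kb. It had 80.1, 78.2, 79.0 and 81.8 CPM without ACLP and 40.6, 46.2, 45.5 and 39.9 CPM with it. With the inhibitor it had 46.2, 50.3, 55.8 and 50.7 CPM. The inhibitor group lay between the others, apart from col1, and its lowest library equalled the highest col1-ACLP library to the digits shown. C1s1 was lower on col1-ACLP by a log2 fold change of -0.89 (SE 0.0681, edgeR adjusted p = 2.41e-10) and fell by 36.4% under SB431542 (-0.65, SE 0.0674, edgeR adjusted p = 1.15e-07). The step between the groups with and without inhibitor, 0.24 on the log2 scale (SE 0.0684), had an edgeR adjusted p of 0.0834.

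C1ra (ENSMUSG00000055172, chromosome 6, 124489364 to 124500402, plus strand) had 22.1 ± 1.10 CPM per kb on col1. Its libraries had 68.4, 68.5, 64.8 and 61.7 CPM without ACLP and 50.9, 40.9, 40.3 and 41.1 CPM with it, where replicate 1 was the highest. With the inhibitor they had 44.5, 45.4, 50.9 and 41.6 CPM. All col1 libraries were higher than all others. C1ra fell by 34.2% on col1-ACLP (log2 fold change -0.60, SE 0.0786, edgeR adjusted p = 2.15e-06) and fell by 30.6% under SB431542 (-0.53, SE 0.0782, edgeR adjusted p = 2.88e-05, under the fold threshold). The ratio of C1ra to C1s1 per length was 0.867 without ACLP, 1.06 with ACLP and 0.945 with ACLP and the inhibitor. The mean on col1-ACLP was raised by replicate 1, with ratios of 1.31, 0.930, 0.929 and 1.08 in replicates 1 to 4. All col1-ACLP libraries (0.929 or more) were above all col1 libraries (0.919 or less), with an exact permutation p of 0.02857, the smallest that 4 against 4 libraries can give, and 0.08571 adjusted over the 12 tests.

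C1ra and C1s1 each have a close copy, and C1r and C1s genes stand side by side on chromosome 6. C1rb had 7.13, 5.88, 6.62 and 8.09 CPM without ACLP, 3.94, 2.60, 3.34 and 2.98 CPM with ACLP and 5.04, 4.93, 4.82 and 4.50 CPM with ACLP and the inhibitor. C1s2 had 12.1, 12.6, 12.4 and 12.1 CPM, then 6.51, 7.68, 6.31 and 5.95 CPM, then 6.66, 8.32, 7.39 and 7.21 CPM in the same order. Both copies were lower in all libraries with ACLP than in all col1 libraries. On col1-ACLP C1rb fell by 1.11 on the log2 scale (SE 0.181, edgeR adjusted p = 5.47e-05) and C1s2 by 0.89 (SE 0.131, edgeR adjusted p = 1.39e-05). On col1-ACLP+SB the log2 fold change of C1s2 was -0.73 (edgeR adjusted p = 2.94e-04), and that of C1rb was -0.52 (edgeR adjusted p = 0.0659). Of 150-base windows, 26.3% of those of C1ra were shared with C1rb, so C1ra and C1rb counts are uncertain where reads could be split. Of those of C1s1, 2.66% were shared with C1s2 and 9.8% with Gm16567 on the other strand, which was at 0 CPM. C1rb made up 9.55% of the reads of C1ra and C1rb on col1, 6.89% on col1-ACLP and 9.59% with the inhibitor, with an exact permutation p of 0.02857 for each step (0.08571 adjusted over the 12 tests). C1s2 made up 13.3% of C1s reads on col1 and 13.3% on col1-ACLP (exact permutation p = 0.9429).

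The neighbouring C1rl, a C1r-like protease gene, fell by 0.50 on the log2 scale on col1-ACLP (SE 0.106, edgeR adjusted p = 0.00107). Of the other tested genes within 100000 bases of the C1r and C1s genes, Pex5 (-0.090), Clstn3 (-0.29), Gm18840 (-1.17), Lpcat3 (0.18), Emg1 (-0.042), Phb2 (-0.059) and Ptpn6 (0.018) did not pass the test on col1-ACLP, with edgeR adjusted p from 0.157 to 0.985. Within 100000 bases of C4b or Cfb, C4b and Ehmt2 (-0.20, edgeR adjusted p = 0.00598) were the tested genes that passed on col1-ACLP. Abundant genes nearer to C4b, Skiv2l (-0.040), Atf6b (0.035), Stk19 (-0.058) and Dxo (-0.13), had edgeR adjusted p from 0.487 to 0.815, and Ppt2 (-0.37) had 0.0585.

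**Figure D2:**
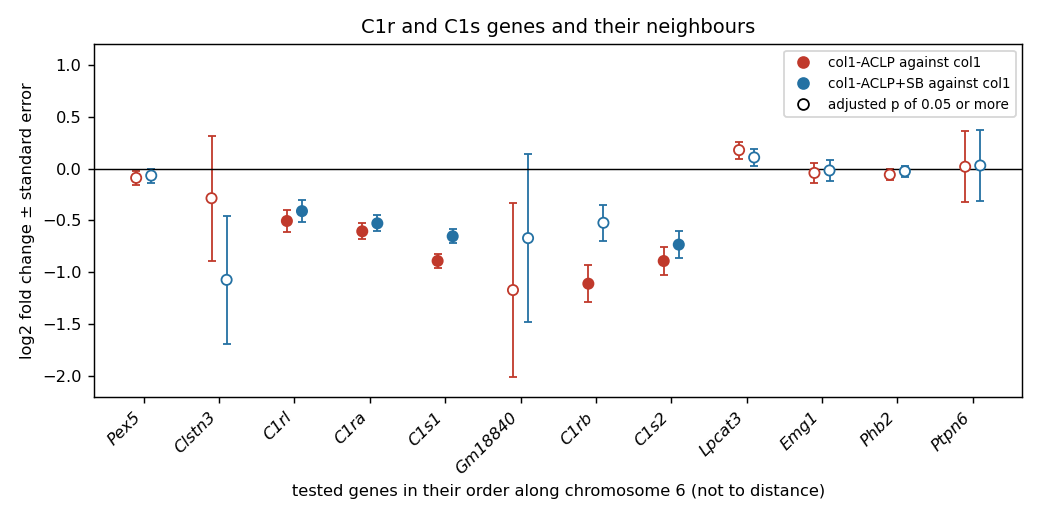
Log2 fold changes with standard errors (vertical axis) of the tested genes in and around the C1r and C1s genes of chromosome 6, in gene order along the chromosome (horizontal axis), for col1-ACLP and col1-ACLP+SB against col1. C1rl, C1ra, C1s1, C1rb and C1s2 lie between -0.50 and -1.11 on col1-ACLP, and the abundant flanking genes Pex5, Lpcat3, Emg1 and Phb2 lie between -0.090 and 0.18.

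Masp1, which encodes proteases of the lectin pathway, moved the other way and by little. Masp1 (ENSMUSG00000022887, chromosome 16, 23268167 to 23339565, minus strand) had 5.67 ± 0.178 CPM per kb on col1. It had 56.3, 53.3, 57.5 and 56.0 CPM without ACLP, 63.1, 62.9, 60.7 and 64.7 CPM with ACLP, and 54.1, 51.7, 53.5 and 55.1 CPM with ACLP and the inhibitor. The col1-ACLP libraries were above all others, and the inhibitor and col1 libraries overlapped. Masp1 was higher by 0.17 on the log2 scale on col1-ACLP (SE 0.0579, edgeR adjusted p = 0.0401) and lower by 0.23 with the inhibitor than without it (log2 fold change -0.23, SE 0.0581, edgeR adjusted p = 0.0438). Against col1 the inhibitor group differed by -0.058 (SE 0.0580, edgeR adjusted p = 0.662). These calls were close to the threshold, and under 21 alternative settings they held in 11 and 6 respectively. Without col1 replicate 2 the first had an edgeR adjusted p of 0.0998. Masp1 overlaps Rtp4 on the other strand, at 2.07 CPM.

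Cd55, which encodes decay-accelerating factor and breaks up the enzymes that cleave C3, was low and had the largest fall of the tested members. Cd55 (ENSMUSG00000026399, chromosome 1, 130366764 to 130390481, minus strand) had 3.03, 3.92, 2.91 and 2.60 CPM without ACLP and 1.19, 0.691, 1.10 and 1.03 CPM with it. Its summed counts over 4 libraries were 472 on col1 and 126 on col1-ACLP. The groups did not overlap, and Cd55 fell by 67.8% (log2 fold change -1.64, SE 0.345, edgeR adjusted p = 0.00108). With the inhibitor it had 1.14, 3.32, 2.32 and 1.26 CPM, from within the col1-ACLP range in replicate 1 to within the col1 range in replicate 2. Neither comparison of this group passed, with log2 fold changes of -0.63 against col1 (SE 0.329, edgeR adjusted p = 0.296) and 1.00 against col1-ACLP (SE 0.346, edgeR adjusted p = 0.167). The copy Cd55b was not tested for want of counts.

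Serping1, the C1 inhibitor gene (ENSMUSG00000023224, chromosome 2, 84595731 to 84605788), was near the limit of measurement, with 0.418, 0.185, 0.455 and 0.418 CPM on col1. It had 0.825, 0.111, 0.134 and 0.390 CPM with ACLP, and 0.057, 0.738, 0.251 and 1.39 CPM with ACLP and the inhibitor. The groups overlapped, and the log2 fold changes of -0.018 (SE 0.810) and 0.70 (SE 0.798) against col1 had edgeR adjusted p of 0.993 and 0.713. Leaving out 1 library turned their signs, from -0.81 without col1-ACLP replicate 1 to 0.28 without col1-ACLP replicate 2 for the first, and to -0.10 without col1-ACLP+SB replicate 4 for the latter. With standard errors of this size a difference as large as those of C3 or C1s1 was not detectable in Serping1.

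The alternative pathway proteases were hardly present. Cfb, encoding factor B (ENSMUSG00000090231, chromosome 17, 35075350 to 35081494), had 0, 3, 18 and 7 counts without ACLP, 0, 0, 5 and 7 with ACLP, and 2, 6, 3 and 7 with ACLP and the inhibitor, and was not tested. Cfd, encoding factor D or adipsin (ENSMUSG00000061780, chromosome 10, 79726687 to 79728489), had no count in any library. With 3 counts over a group as the limit that a count of 0 allows, Cfd was at most 0.0197, 0.0236 and 0.0204 CPM in the col1, col1-ACLP and col1-ACLP+SB groups, for counting error only. Of Cfb windows, 71.8% occurred in other annotated genes too, mostly in the read-through gene Gm20547, which was at 0 in these libraries.

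Counted together on col1-ACLP against col1, 5 of the 7 tested genes (C3, C4b, C1ra, C1s1 and Cd55) were lower past both the adjusted p and the fold threshold, where 2.36% of all tested genes were. The same 5 were lower at the adjusted p alone, beside 8.41% of all genes, and lower in all 4 libraries than in any col1 library, beside 10.3%. Masp1 was the 1 gene higher at the adjusted p and in all 4 libraries, beside 9.52% and 10.9% of all genes. The median log2 fold change of the 7 was -0.62, against -0.0099 over all genes. C1ra was just beyond the fold threshold and lay under it without col1-ACLP replicate 3 or 4.

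On col1-ACLP+SB against col1, C4b and C1s1 were lower past both thresholds, 2 of 7, where 1.01% of all genes were. Without col1 replicate 2, or without col1-ACLP+SB replicate 4, C1s1 was the 1 gene past both. C3, C4b, C1ra and C1s1 passed the adjusted p, beside 4.54%, and lay below col1 in all libraries, beside 6.32%. The median of the 7 was -0.53, against 0.0046 over all genes. This comparison shares its col1 libraries with the one before, so their likeness is not a separate result.

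On col1-ACLP+SB against col1-ACLP, none of the 7 genes passed both thresholds in edgeR, DESeq2 or limma-voom, where 0.128% of all genes did in edgeR, and 4 of 7 had an unadjusted p under 0.05 in edgeR, beside 2111 of 16465 genes. Masp1 passed the adjusted p, 1 of 7 beside 1.48% of all genes. The libraries were apart in C1s1 (higher) and Masp1 (lower), 2 of 7 beside 8.17%, but for C1s1 the nearest libraries were equal at 46.2 CPM to the digits shown. The estimates of the other 6 genes were all above 0, from 0.077 for C1ra to 1.00 for Cd55, and that of Serping1 was -0.084 without col1-ACLP+SB replicate 4. A missed threshold does not show that the inhibitor left these genes as they were.

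**Figure D3:**
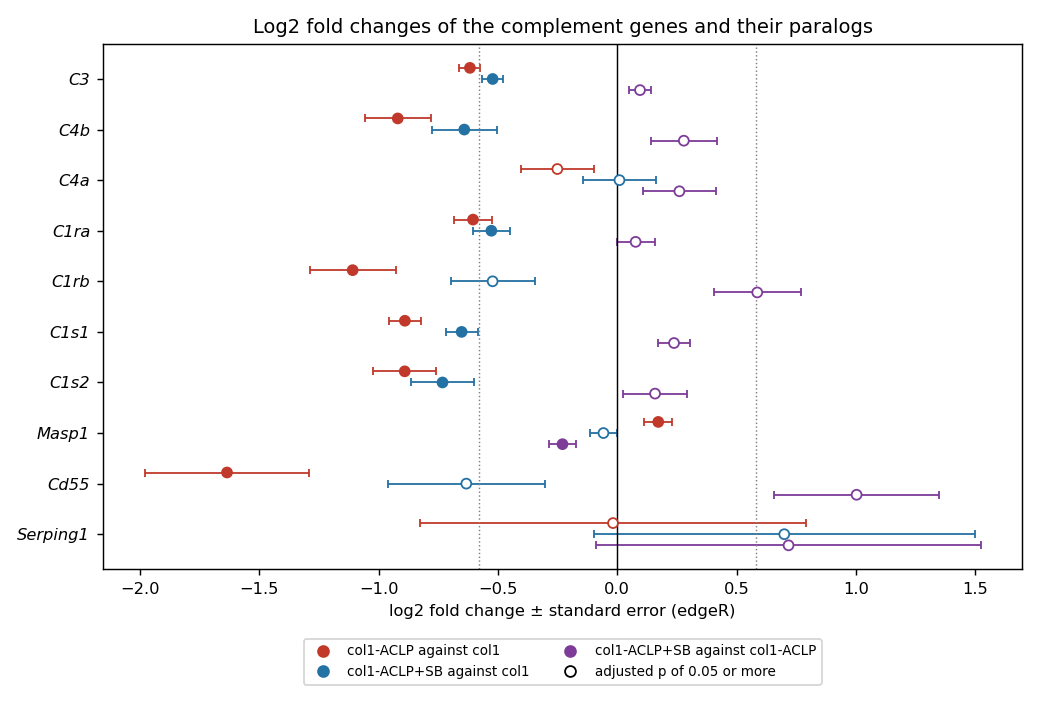
Log2 fold changes with standard errors (horizontal axis) of the 7 tested members and the paralogs C4a, C1rb and C1s2 in the 3 comparisons, with open points for an edgeR adjusted p of 0.05 or more and dotted lines at the fold threshold of 0.58. C3, C4b, C1ra, C1s1 and Cd55 lie left of the dotted line on col1-ACLP, Masp1 lies at 0.17, and Serping1 has a standard error of about 0.80 in each comparison.

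Across the 12 libraries, log2 CPM of C3 correlated with that of C1s1 at Pearson r = 0.966 and with C1ra at 0.928, and C4b with C1ra at 0.902. These points share the difference between groups. After the group means were removed, the same pairs correlated at 0.406, 0.26 and 0.529. C3 and C4b correlated at 0.839 across the libraries and at -0.132 after the group means were removed. For C1ra and C1s1 the values were 0.897 and -0.0538. The 3 genes most like C3 among 10433 other genes of at least 5 CPM were B4galt5 (r = 0.990), Sash1 (0.987) and Pdgfra (0.987), the last a receptor of platelet-derived growth factor in mesenchymal cells. For C1s1 they were Igdcc4 (0.985), Ralgds (0.983) and Tmem64 (0.982), and for C1ra Egfr (0.961), Ttyh2 (0.952) and Mknk2 (0.951). For C4b they were Gbp2 (0.956), Arl6ip5 (0.950) and Acaa2 (0.947), and for Cd55 Dnm1 (0.952), Fcgrt (0.939) and Dusp5 (0.939). All of these are descriptions over 12 libraries that share group and scaling.

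The rest of the pathway was read from a list of 49 other complement symbols, of which 39 had a count and 18 were tested. On col1-ACLP 5 of these were lower at the edgeR adjusted p (C1rb, C1s2, C1rl, Colec12 and Clu), 1 was higher (C1qbp) and 12 did not pass, with a median log2 fold change of -0.30 against -0.0099 over all genes. Of all genes 8.41% were lower and 9.52% higher by the same rule. Of the lower genes, C1rb, C1s2 and C1rl stand beside the members C1ra and C1s1 on chromosome 6. C1rb and C1s2 are also their copies, so these calls are not separate from those of the members. Without col1 replicate 2 the count that passed was 7 in place of 6. Clu, encoding the fluid-phase regulator clusterin, fell from 382 ± 19.1 to 299 ± 9.26 CPM (log2 fold change -0.35, edgeR adjusted p = 3.89e-06). Colec12, a membrane collectin, fell from 290 ± 17.2 to 193 ± 10.5 CPM (-0.58, edgeR adjusted p = 2.26e-08). C1qbp, a mostly mitochondrial protein that binds C1q, was 46.6 ± 1.64 CPM on col1 and rose to 55.9 ± 0.942 CPM (0.26, edgeR adjusted p = 0.00338). Cr1l, which encodes the rodent membrane regulator Crry, had 53.3 ± 4.50 CPM on col1 and did not pass (log2 fold change on col1-ACLP 0.12, edgeR adjusted p = 0.231).

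On col1-ACLP+SB against col1, 5 of the 18 were lower at the edgeR adjusted p (C1s2, Colec10, Colec12, C1rl and Clu) and none higher, with a median of -0.12 against 0.0046 over all genes, of which 4.54% were lower. At an unadjusted p under 0.05 were 7 of 18, beside 3278 of 16465 genes. Colec10, a soluble collectin of the lectin pathway, fell by 0.89 on the log2 scale (SE 0.161, edgeR adjusted p = 3.47e-04). Its col1-ACLP value against col1 was -0.29 (edgeR adjusted p = 0.236). Colec10 on col1-ACLP+SB against col1-ACLP was at -0.60 (SE 0.162, edgeR adjusted p = 0.0638), which did not pass, with all libraries lower. With and without the inhibitor, none of the 18 passed in edgeR or limma-voom, 1 passed in DESeq2, and 6 had an unadjusted p under 0.05 in edgeR, beside 2111 of 16465 genes. The C1q chain genes C1qb and C1qc, the lectins Mbl1, Mbl2 and Fcnb, the terminal components C7 and C8a, and the receptors C5ar1 and Vsig4 had no count in any library.

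Of the transcription factors, cytokine receptors and feedback genes known to act on complement genes, 24 are reported here and all were tested. On col1-ACLP 11 were lower at the edgeR adjusted p, 1 was higher (Nr3c1, the glucocorticoid receptor, 0.18) and 12 did not pass, beside 8.41% lower and 9.52% higher of all genes. Il6ra, encoding the interleukin 6 receptor, fell from 22.2 ± 2.81 to 10.3 ± 0.677 CPM (log2 fold change -1.11, SE 0.121, edgeR adjusted p = 1.20e-07). Pparg (-0.63, SE 0.0975, edgeR adjusted p = 2.95e-05) and the interleukin 1 receptor gene Il1r1 (-0.60, SE 0.0761, edgeR adjusted p = 1.31e-06) also passed both thresholds. Among the factors, Cebpb (-0.35, edgeR adjusted p = 0.00189) was lower, and Stat3 (-0.023, adjusted p = 0.840) and Nfkb1 (-0.14, adjusted p = 0.0552) did not pass in edgeR. Named after their values were seen, the factor genes Irf1 (-0.575, adjusted p = 2.08e-06), Nfkb2 (-0.18, adjusted p = 0.0145) and Relb (-0.20, adjusted p = 0.0455) were lower too in edgeR. Also named afterwards, Rela (-0.028, adjusted p = 0.834), Cebpd (-0.018, adjusted p = 0.910) and Cebpa (-0.30, adjusted p = 0.106) did not pass in edgeR. Il6 itself was low, at 1.84 ± 0.631 and 2.68 ± 0.476 CPM, and did not pass (edgeR adjusted p = 0.263).

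On col1-ACLP+SB against col1, 9 of the 24 were lower at the edgeR adjusted p and none higher, beside 4.54% lower of all genes, with 13 at an unadjusted p under 0.05, beside 3278 of 16465 genes. Pparg (-0.74, edgeR adjusted p = 5.73e-06) and Il6ra (-0.74, edgeR adjusted p = 7.90e-05) passed both thresholds. Cebpb (-0.17, adjusted p = 0.218) did not pass in edgeR, and Nfkb1 (-0.21, edgeR adjusted p = 0.00686) did. Between the groups with and without the inhibitor none of the 24 passed in edgeR, and 6 had an unadjusted p under 0.05, beside 2111 of 16465 genes.

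**Figure D4:**
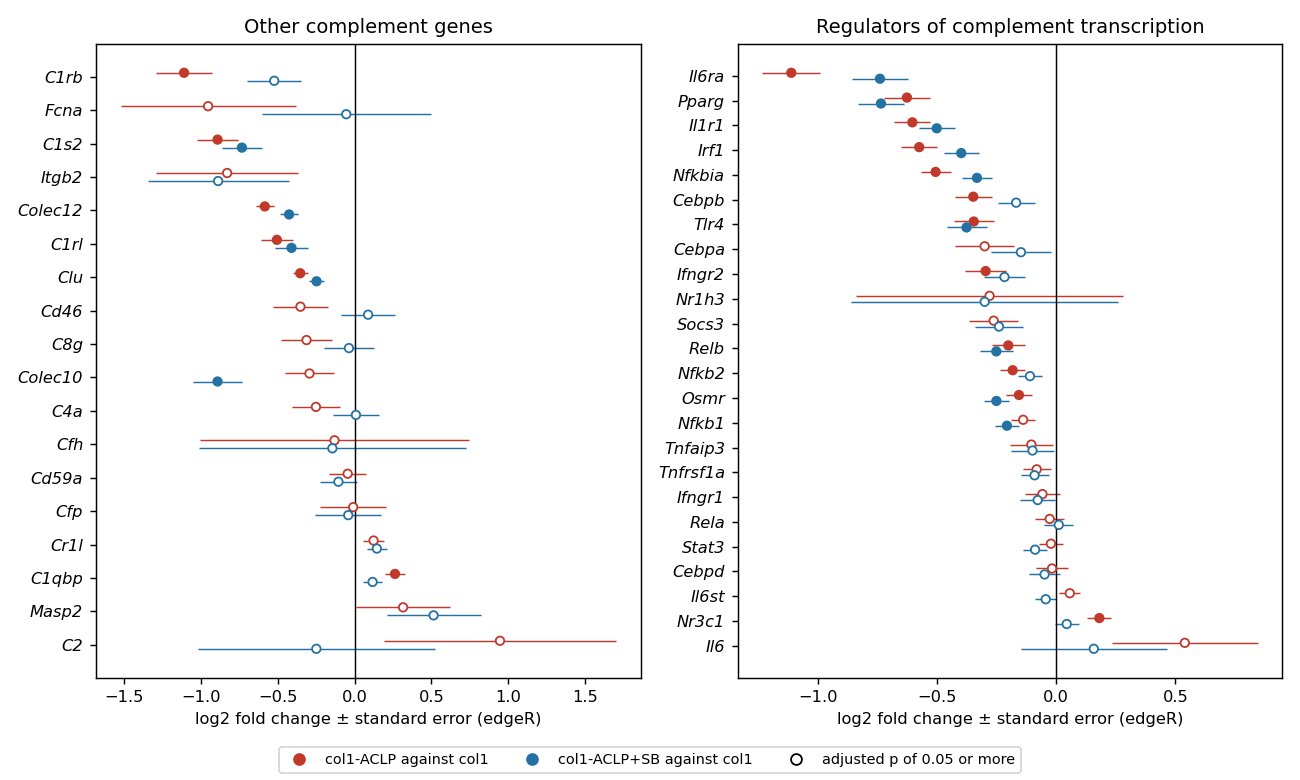
Log2 fold changes with standard errors (horizontal axes) against col1, for col1-ACLP with and without the inhibitor, of the 18 tested genes of the wider complement list (left) and the 24 reported regulators of complement transcription (right), with open points for an edgeR adjusted p of 0.05 or more. C1rb and Il6ra, at -1.11 each, are the lowest tested estimates on col1-ACLP in their lists, and of the points above 0 the filled ones are C1qbp and Nr3c1 on col1-ACLP.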

How the data were processed

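RNA of 12 libraries, 4 per group, was enriched for poly(A) and sequenced as paired-end reads, and the authors mapped it with HISAT2. The authors deposited raw counts per gene, not normalized. The counting tool, its use of strand and its treatment of shared reads are not given in the sources used here. The labels name build mm10 and the study's methods GRCm39. The table's gene coordinates are those of GRCm39. The SB431542 dose is from the study's methods. Replicates of a group differed beyond counting error (chi-square per degree of freedom 7.22 to 19.5). The study calls the 4 libraries of a group biological replicates, of a single cell line.

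For the tests, edgeR 4.0.16 was run in R 4.3.3 (filterByExpr, TMM, glmQLFit and glmQLFTest, group as the only term, all 12 libraries), with Benjamini-Hochberg adjustment over 16465 genes. Past both thresholds means an adjusted p under 0.05 and a log2 fold change beyond 0.58 in size. The study's methods use DESeq2 with these thresholds, and DESeq2 1.42.0 and limma-voom (limma 3.58.1) were alternatives here. Standard errors are the fold change divided by the square root of F. The procedure was tested on simulated data. Same-numbered libraries did not deviate together (correlations from -0.0372 to 0.036), and the numbers were not taken as pairs. At this depth 3 counts stand for 0.0579 to 0.106 CPM in a library.

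The 9 genes and all lists were chosen with earlier results of these data known. Named genes were the members, paralogs of members, list genes past the edgeR threshold, the 5 most abundant tested pathway genes, regulators past both thresholds with Cebpb, Stat3, Nfkb1 and Il6, and the 3 genes of most similar pattern per member. A listed regulator is not reported here and was left out of the list's counts. Neighbours, genes named for having no counts and 150-base windows of GENCODE transcripts were added as descriptions after values were seen.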

Additional observations from a re-analysis of the deposited data

Results flagged for a closer look

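In groups of 4, C1ra of col1-ACLP replicate 1 (50.9 CPM, gap 0.923 of the group's range) and Serping1 of col1 replicate 2 (0.185 CPM, gap 0.861) lay farther from the nearest library than Dixon's limit, which chance passes in about 1 in 20 groups. The C1ra library was the highest of its group, and C1ra was lower than in every col1 library with it included. Masp1 differed between the libraries with and without SB431542 on the same matrix, with a log2 fold change of -0.23 in edgeR, lower in 4 of 4 libraries.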

How the results depend on the processing

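Of the 9 genes, C3, C4b, C1s1 and Cd55 passed both thresholds on col1-ACLP against col1 under all 21 alternatives listed here for single genes, with C3 between -0.67 and -0.59, and C1ra under 19. C4b passed both against col1 with the inhibitor under 19 of 21. No gene's called direction was reversed. In the comparison with and without inhibitor, the 1 member at the adjusted p (Masp1) became 0 with library size alone, no filter, only the 2 groups compared or the replicate block, and 2 (C1s1 and Masp1) in DESeq2. There the 21 genes past both thresholds became 46 with no filter, 38 in DESeq2 and 0 with glmTreat at 0.58, and the wider complement list went from 0 to 1 with no filter and in DESeq2. With glmTreat, a stricter test by construction, genes past the threshold were 230 for col1-ACLP and, with the inhibitor, 81 against col1, in place of 819 and 376, and members 2 (C1s1 and Cd55) and 0. Leaving out 1 library gave 1 to 3 members past both on col1-ACLP+SB against col1 (main 2, with 1 without col1 replicate 2 or col1-ACLP+SB replicate 4), 0 to 1 at the adjusted p with against without inhibitor, and 10 to 29 genes there, the lowest without col1-ACLP replicate 4. Where not stated, the cause was not tested. The replicate block changed no other member call than Masp1. At this depth Serping1, Cfb and Cfd are limited by counts.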
